A study of Homo sapiens with 8 samples.

Results

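The genes described here are the RNA helicases and splicing factors whose symbols start with DDX, DHX, SRSF, HNRNP, SF3A, SF3B, PRPF, SNRP, RBM, LSM or CPSF, with a digit next where the rule asks for one, and with DDX21 left out. Members were taken by symbol alone from the rows of the expression table that the platform annotation pairs with exactly 1 gene symbol, and each gene was represented by its brightest row. This gave 152 members among 14812 named genes, of which 136 are protein coding in RefSeq and 16 are pseudogenes or non-coding RNAs that carry a family symbol. The families were unequally covered, with 36 DDX, 16 DHX, 11 SRSF, 25 HNRNP, 10 PRPF, 12 SNRP and 40 RBM genes, while LSM and CPSF had 1 gene each (LSM12 and CPSF4L) and the SF3 symbols had 0 rows. After genes in the lowest 25% of mean log2 intensity were set aside, 129 of the 152 members and 11109 of the 14812 named genes were tested. The arrays came from human myeloma cell lines with the translocation t(4;14), namely OPM2, KMS11, KMS18 and KMS34, and each of the 4 gave 1 control and 1 MMSET I knockdown array. All cells, controls included, received lentivirus together with polybrene (8 µg/mL) and were collected 48 h after the virus was replaced by fresh medium, per the protocols; the series text instead speaks of 72 h with shRNA, in KMS11 only. The study asked how gene expression depends on MMSET I, a short product of the histone methyltransferase gene NSD2, which t(4;14) places next to the immunoglobulin heavy chain locus.

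As background, a spliceosome assembles on each intron from small nuclear ribonucleoproteins, in which Sm ring proteins and particle-specific proteins (SNRP and PRPF genes among others) surround a small nuclear RNA. DExD/H-box helicases (the DDX and DHX genes) use ATP to rearrange RNA and RNA-protein contacts, in splicing and also in ribosome assembly, RNA export, translation and decay. SR proteins (SRSF) often promote the use of a nearby splice site, hnRNP proteins often repress it, and the RBM symbol covers many proteins that share an RNA recognition motif. Plasma cells, from which myeloma arises, make very large amounts of spliced immunoglobulin mRNA.

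The values are intensities of an Affymetrix gene array, in which a row sums up probes along 1 gene, so they report total transcript level and say nothing about splice forms. Across the 129 tested members, log2 values of the control and the knockdown array of the same line correlated at 0.993 to 0.997, and arrays of different lines at 0.938 to 0.967; over all tested genes the ranges were 0.991 to 0.993 and 0.880 to 0.915. The row of the targeted gene NSD2 gave 680 to 814 on control arrays and 549 to 728 on knockdown arrays, lower in 4 of 4 lines, with a mean log2 difference of -0.18 and an adjusted p of 0.472. That row covers the whole gene and not the short product alone, and the intensities of the 2 groups overlapped. All 9 of the 14 plasma cell markers that had a row were above the intensity limit, SDC1, CD38, IRF4 and XBP1 among them. Of the other markers with a row, 8 of 8 for T and NK cells, 5 of 8 for myeloid and 2 of 5 for stromal and endothelial cells were above it, and 0 of any of these lists passed the knockdown test. Summed per control array, the plasma cell markers gave 8570 to 11121 and the T and NK cell markers 563 to 676. The myeloid markers gave 1087 to 1238, and the stromal and endothelial markers 222 to 248. CD2 lay at 45.7 to 52.3, around the limit of 46.7, and CD38 at 50.6 on the KMS11 control array. Being above the limit thus does not show that a gene is expressed. The labels do not say whether the arrays came from separate experiments. The p-values of the limma fit used here rest on how the knockdown differences of the lines spread in these 8 arrays. That fit draws the spread of each gene toward the typical spread of all tested genes. Such a p-value thus does not come from the values of 1 gene alone.

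No member passed the test for the knockdown across the 4 lines. The threshold was an adjusted p of 0.05 in limma with cell line as a block, and 0.117% of all tested genes (13 of 11109) passed it, 0.0990% lower and 0.0180% higher. At an unadjusted p under 0.05 there were 9 members, or 6.98% of those tested against 8.41% of all tested genes, 8 of them lower after the knockdown (6.20% against 4.15%) and 1 higher (0.775% against 4.26%). The mean difference was below 0 in 77 of 129 members (59.7%, against 51.6% of all tested genes), with a median of -0.02 on the log2 scale. Lower intensity in each of the 4 lines was seen for 24 members (18.6%, against 8.76% of all tested genes), and higher intensity in each of the 4 lines for 9 (6.98% against 8.29%). The members are brighter than most genes: 106 of them lie in the brighter part of the tested genes, above their median, where 11.3% of genes and 21.7% of members were lower in 4 lines. In RNA from a whole culture, fewer cells that express a gene and less RNA per cell cannot be told apart.

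The member with the smallest p was DDX5, a DEAD-box helicase (p68) that takes part in splicing, microRNA processing and transcription. Its intensity was 2112 on the control and 1875 on the knockdown array of KMS11, 2247 and 1771 in KMS18, 2021 and 1765 in KMS34, and 2165 and 1815 in OPM2. Every control array was above every knockdown array, so the groups did not overlap, and the 4 lines were nearly level with each other. The mean was 2136 ± 95 (SD, n = 4) in controls and 1806 ± 51 after the knockdown. On the log2 scale DDX5 differed by -0.24 (standard error 0.063), with an unadjusted p of 0.00239 and an adjusted p of 0.288, so it did not pass the test. It passed under 1 other setting of the same model, in which the spread may depend on intensity and outlying genes are down-weighted, with an adjusted p of 0.0263.

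DDX17 (p72), the closest relative of DDX5 and its partner in many of the same complexes, had the smallest p among the members that were higher in 4 lines. Its intensity was 1186 on the control and 1255 on the knockdown array of KMS11, 762 and 803 in KMS18, 868 and 934 in KMS34, and 1072 and 1366 in OPM2. The knockdown array was the higher in each line, but the lines differed so much that the 2 groups overlapped. On the log2 scale it differed by 0.15 (standard error 0.068), with an unadjusted p of 0.0444 and an adjusted p of 0.593, and it was 0.35 in OPM2 against 0.08 to 0.11 in the other 3 lines. Within each line the difference of DDX17 exceeded that of DDX5, by 0.25 to 0.61 with a mean of 0.40 ± 0.16 (SD, n = 4). An exact two-sided permutation test over the 4 lines gave p = 0.125, the smallest it can give, and 0.562 after adjustment over 18 pairs. These 18 pairs of related members were listed after values had been seen. DDX5 was named as lower and DDX17 as higher in each of the 4 lines. That fixes the p of this pair in advance, so it adds no support. The bases just before the start of each gene are shown because this related pair had opposite signs. They are the 250 bases upstream, from RefSeq on GRCh38.p14, on the gene's own strand, at chr17:64506639-64506888 (minus strand, the most upstream of 3 starts) for DDX5 and chr22:38506312-38506561 (minus strand) for DDX17. Capitals mark matches, searched on both strands, to any of 5 short motifs. The GC box was searched as GGGCGG. The ETS core, bound by factors of that family, was searched as CCGGAA. The E-box, a site of basic helix-loop-helix factors, was searched as CACGTG. The last 2 were the box named by its letters CCAAT and the box that lies near many sharp starts, searched as TATAAA.
DDX5: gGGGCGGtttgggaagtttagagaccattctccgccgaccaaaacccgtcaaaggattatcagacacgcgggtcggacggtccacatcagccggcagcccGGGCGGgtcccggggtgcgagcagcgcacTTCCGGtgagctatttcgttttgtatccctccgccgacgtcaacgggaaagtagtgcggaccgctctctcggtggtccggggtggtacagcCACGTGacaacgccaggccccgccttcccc
DDX17: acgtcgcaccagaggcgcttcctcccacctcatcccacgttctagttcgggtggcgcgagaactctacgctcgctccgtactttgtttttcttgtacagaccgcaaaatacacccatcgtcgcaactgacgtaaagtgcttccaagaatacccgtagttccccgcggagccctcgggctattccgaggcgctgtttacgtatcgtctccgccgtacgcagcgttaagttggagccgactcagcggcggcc
The DDX5 window holds 4 matches, which are a GC box in 2 places, an ETS core and an E-box, and has a GC content of 64.0%. The DDX17 window holds 0 matches and has a GC content of 58.0%. The arrays did not measure binding at these sequences.

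**Figure D1:**
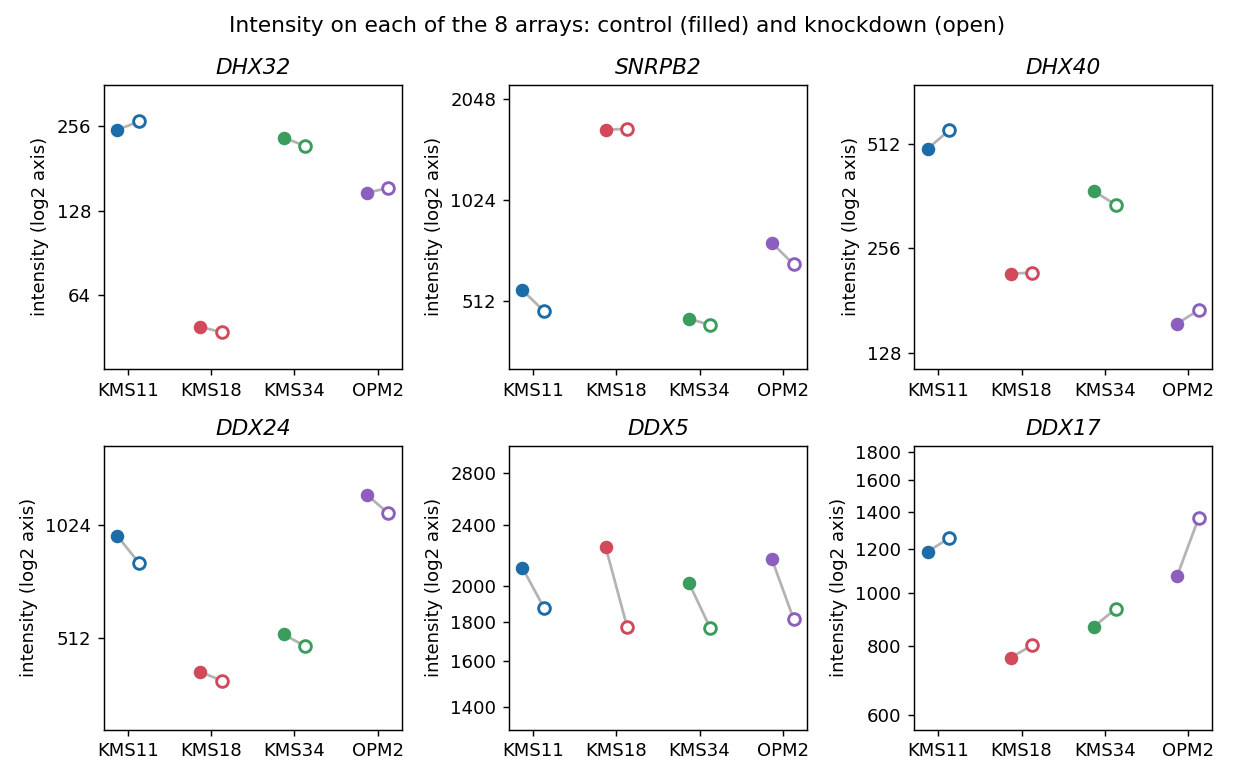
Intensity (log2 axis) of 6 members on each of the 8 arrays, with the control array of a line as a filled point and its knockdown array as an open point. DHX32, SNRPB2, DHX40 and DDX24 are set apart by line, whereas DDX5 is level across lines and lower on each knockdown array, and DDX17 is higher on each knockdown array.

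Among the other helicases, the lower members with small p were DDX50 and DDX24, both found mainly in the nucleolus. DDX50 went from 208 to 181 in KMS11, from 176 to 145 in KMS18, from 243 to 226 in KMS34 and from 302 to 260 in OPM2. These are steps down in each line, smaller than the gaps between lines, and the 2 groups overlapped. The mean log2 difference of DDX50 was -0.20 (standard error 0.063, adjusted p 0.420). DDX24 had a difference of -0.15 and an adjusted p of 0.580. On the higher side stood DDX6, a repressor of translation that promotes decapping of mRNA, with 0.11 (adjusted p 0.675), and DDX49, a helicase of ribosomal RNA processing, with 0.11 (adjusted p 0.709). DHX35, which is found in spliceosomes, had 0.08 and DDX31 had 0.07, with adjusted p-values of 0.773 and 0.798. Of the listed DDX and DHX helicases that drive the steps of the splicing cycle, only DHX16 (Prp2 in yeast) lay above 0, at 0.02. The others were DDX46 (Prp5) at -0.11, DDX23 (Prp28) at -0.09, DHX38 (Prp16) at -0.10, DHX8 (Prp22) at -0.04 and DHX15 (Prp43) at -0.03. The signs of DHX16, DHX8 and DHX15 turned when 1 line was left out (DHX16 -0.02 without KMS11, DHX8 0.01 without KMS18, DHX15 0.02 without OPM2).

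Among proteins of the small nuclear ribonucleoproteins and the PRPF genes, differences below 0 were the more frequent. They were seen in 7 of 10 tested SNRP and 7 of 10 tested PRPF genes, beside 51.6% of all tested genes. The medians were -0.08 and -0.06 on the log2 scale, beside -0.00 for all tested genes. This was not particular to them, as 11 of 16 DHX and 18 of 29 DDX genes were also below 0, each with a median of -0.02. The DDX count includes the non-coding RNA DDX11-AS1 and the pseudogenes DDX11L1, DDX11L9 and DDX11L10, all below 0, and the pseudogene DDX11L2, above 0. By line, the SNRP genes were below 0 in 8 of 10 in KMS11 (median -0.17) and 9 of 10 in OPM2 (-0.14), but in 3 of 10 in KMS18 (0.06) and 5 of 10 in KMS34 (0.00). PRPF genes were below 0 in 8, 5, 6 and 8 of 10 in KMS11, KMS18, KMS34 and OPM2. Of all tested genes, 50.5%, 49.1%, 53.4% and 49.4% were below 0 in these lines, in the same order. PRPF38A, a factor needed for spliceosome activation, was lower in 4 lines with a difference of -0.20, a standard error of 0.071 and an adjusted p of 0.491. Its largest step was in KMS18, from 707 to 531, and its smallest in KMS34, from 589 to 565. SNRPA, which encodes a protein of the U1 particle that binds U1 RNA, was at 964 and 794 in KMS11, 769 and 724 in KMS18, 946 and 871 in KMS34, and 940 and 895 in OPM2. SNRPA was thus lower in each line, most in KMS11, with a mean difference of -0.14 and an adjusted p of 0.594. SNRPB, which encodes the Sm proteins B and B', fell short of the same sign in 4 lines, with -0.38 in KMS11 and -0.35 in OPM2 but 0.02 in KMS18 and -0.02 in KMS34. PRPF39 and PRPF40B, both linked to the U1 particle, were higher in 4 lines by a mean of 0.08 and 0.07, with adjusted p-values of 0.773 and 0.804.

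Of the regulators that bind pre-mRNA, RBM23, RBM42 and HNRNPL were lower in 4 lines with unadjusted p under 0.05. RBM23, an RNA recognition motif protein related to RBM39, gave a log2 difference of -0.17 and an adjusted p of 0.491, with -0.13, -0.10, -0.23 and -0.23 in KMS11, KMS18, KMS34 and OPM2. RBM42 gave -0.16 (adjusted p 0.556) and was lowest in KMS11, at -0.28, as SNRPA was. HNRNPL, which binds CA-rich RNA, gave -0.13 (adjusted p 0.593), within -0.19 to -0.09 in the 4 lines. The median difference of the 21 tested HNRNP genes was -0.01, that of the 32 RBM genes -0.02 and that of the 9 SRSF genes 0.01. SRSF8, an SR protein gene that arose as a copy of SRSF2, gave 0.29 in KMS11 and 0.28 in KMS18, 0.13 in KMS34, but -0.07 in OPM2. SRSF2 itself was lower in each line, with a mean of -0.08, so that SRSF8 exceeded SRSF2 in 4 of 4 lines by a mean of 0.24 (exact two-sided permutation p = 0.125 and 0.562 after adjustment over the same 18 pairs). RBM26-AS1, an RNA antisense to RBM26, was higher in 4 lines by a mean of 0.07 (adjusted p 0.805).

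**Figure D2:**
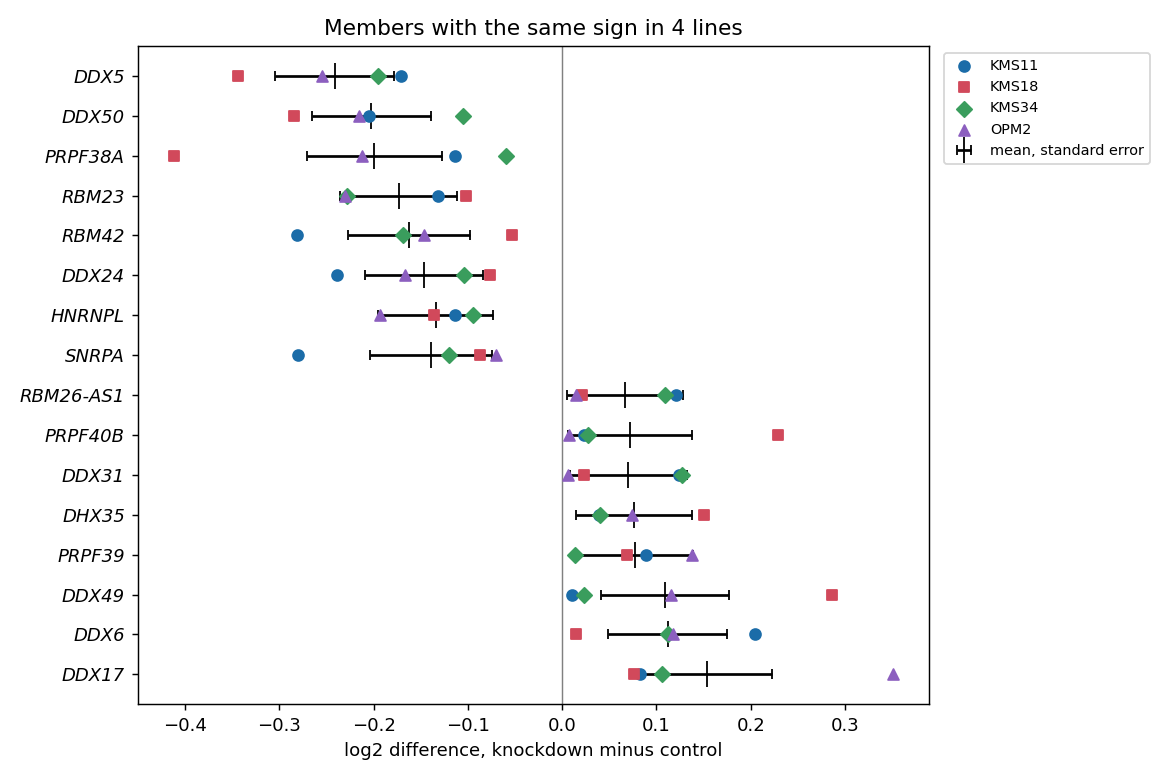
Log2 difference of knockdown minus control in each of the 4 lines for the named members with the same sign in all 4, with the limma mean and its standard error. DDX5 and DDX50 have the lowest means, KMS18 holds the lowest value of DDX5, DDX50 and PRPF38A, and the DDX17 value in OPM2 lies apart from its other 3.

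**Figure D3:**
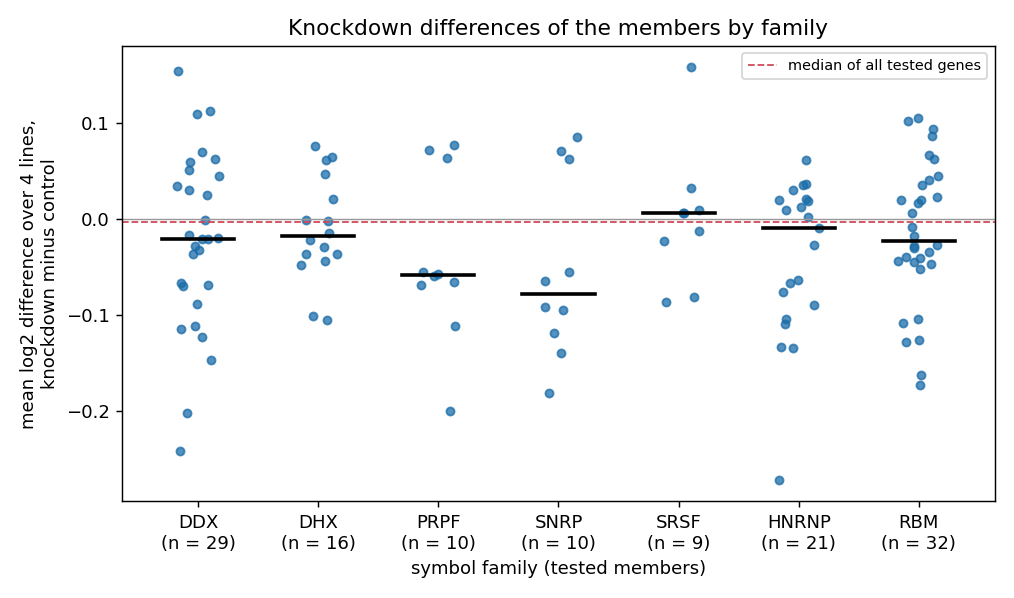
Mean log2 difference of knockdown minus control over 4 lines for each tested member (points), by symbol family, with the family median as a black bar and the median of all tested genes as a dashed line; LSM12 and CPSF4L, the single members of their families, are not drawn. Of the 7 families drawn, SNRP and PRPF have the lowest medians, at -0.08 and -0.06, and the points lie between -0.27 and 0.16.

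Within a single line, where 1 array per condition allows no test, differences were small. At 1.5-fold, 1 member stood out, the pseudogene HNRNPA1P33, which went from 67.6 to 35.6 in KMS11 (0.243% of all tested genes were as much lower in that line and 0.270% as much higher). Pseudogenes of HNRNPA1 share sequence with the parent gene, so their probes may take up its signal, and HNRNPA1 itself was 341 and 354 there. In the other lines 0 members reached 1.5-fold in either direction. The shares of all tested genes that did were 0.0450% higher and 0.0810% lower in KMS18, 0.117% and 0.135% in KMS34, and 0.0900% and 0.0990% in OPM2. The members named next are the 3 farthest in each direction among those whose brighter array lay over the median intensity of the tested genes; dimmer members such as HNRNPA1L2 (0.58 in KMS11 and -0.31 in KMS34), which shares sequence with HNRNPA1, lay farther out in some lines. Of the brighter members, the lowest in KMS11 were SNRPB, which went from 474 to 364, LSM12, from 485 to 373, and the Sm protein gene SNRPD1, from 620 to 490 (differences of -0.38, -0.38 and -0.34). In OPM2, SNRPB went from 614 to 484 (-0.35), while in KMS18 and KMS34 it differed by 0.02 at most. SNRPD1 was 0.11 higher in KMS18 and 0.13 higher in KMS34, so these Sm genes did not move alike in the 4 lines. RBM17, which takes part in 3′ splice site choice, was the lowest of the brighter members in OPM2 at -0.41 (from 308 to 231). The lowest of these brighter members in KMS34 were RBM22, a protein of the active spliceosome, RBM48 and SRSF11 (-0.28, -0.27 and -0.26), and those of KMS18 were PRPF38A, DDX5 and HNRNPC (-0.41, -0.34 and -0.31). The highest of the brighter members were SRSF8, RBM34 and RBM41 in KMS11 (0.29, 0.27 and 0.22), DDX49, SRSF8 and DDX28 in KMS18 (0.29, 0.28 and 0.27), RBM5, DHX8 and DHX9 in KMS34 (0.23, 0.16 and 0.16) and DDX17, RBM4B and HNRNPA0 in OPM2 (0.35, 0.34 and 0.22). RBM4B was near 0 in the other 3 lines.

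The lines differed far more from each other than the knockdown arrays did from the controls. In limma's moderated F test over the lines, 108 of 129 members passed an adjusted p of 0.05 (83.7%, against 75.7% of all tested genes). The error in this test is the spread of the knockdown differences between the lines, drawn toward the typical spread of all tested genes. As no line has replicate arrays of a condition, the test compares these cultures. The line means of 11 members spanned at least 2-fold (8.53%, against 18.8% of all tested genes); this count was 7 without KMS18 and 5 without OPM2. The median span of the members was 0.52 on the log2 scale, as it was for all tested genes.

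DHX32, a DEAH-box protein without a settled role in splicing, had the widest span of all members. Its control and knockdown intensities were 248 and 266 in KMS11, 49.3 and 47.1 in KMS18, 233 and 218 in KMS34, and 148 and 154 in OPM2. Both KMS18 arrays were far below the rest, close to the intensity limit of 46.7, and there was no overlap. KMS18 was lower than the mean of the other 3 lines by 4.28-fold, or -2.10 on the log2 scale (standard error 0.074, adjusted p 6.07e-10). This fold is one of deposited values; whether the KMS18 signal was above background is not known here, so its true size is not set. SNRPB2, which encodes U2B'', a protein of the U2 particle that recognises the branch site, stood at the other end of the same line. Its intensities were 550 and 476 in KMS11, 1653 and 1667 in KMS18, 453 and 433 in KMS34, and 761 and 657 in OPM2. The KMS18 arrays were above all others, 3.06-fold over the mean of the other lines (log2 difference 1.61, standard error 0.076, adjusted p 7.27e-09). SNRPA1, which encodes the partner of U2B'' on U2 RNA, was also highest in KMS18, at 247 and 233 against 156 to 195 on the other 6 arrays (log2 difference 0.42, adjusted p 3.19e-04). SNRPA, whose protein is closely related to U2B'' but belongs to U1, was lower in KMS18 by 0.27 on the log2 scale. The upstream bases of the 2 genes that set KMS18 apart most are shown in the same way, at chr10:125881293-125881542 (minus strand) for DHX32 and chr20:16729776-16730025 (plus strand) for SNRPB2.
DHX32: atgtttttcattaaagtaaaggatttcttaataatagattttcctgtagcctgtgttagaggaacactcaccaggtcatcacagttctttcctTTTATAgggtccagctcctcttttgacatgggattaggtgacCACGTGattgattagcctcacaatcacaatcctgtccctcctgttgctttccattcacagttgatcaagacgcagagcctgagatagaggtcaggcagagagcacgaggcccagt
SNRPB2: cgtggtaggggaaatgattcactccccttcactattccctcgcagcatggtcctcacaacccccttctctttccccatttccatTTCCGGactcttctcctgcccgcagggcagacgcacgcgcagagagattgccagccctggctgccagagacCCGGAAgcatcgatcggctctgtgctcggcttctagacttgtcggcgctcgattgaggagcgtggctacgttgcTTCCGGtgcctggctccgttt
The DHX32 window is poor in G and C (44.0%) and holds 2 matches, to the TATA box and the E-box. The TATA box match begins 157 bases before the start and reads TTTATA, the reverse complement of TATAAA. It is a match of letters only, and whether it acts as a TATA box was not tested. The SNRPB2 window (59.6%) holds 3 matches, each to the ETS core, and the nearest of them begins 21 bases before the start.

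Next came DHX40, RBM41 and DDX24. DHX40, another DEAH-box helicase, gave 495 and 560 in KMS11, 217 and 218 in KMS18, 374 and 342 in KMS34, and 156 and 170 in OPM2. The 4 lines did not overlap, and the highest line mean was 3.23-fold the lowest; KMS11 was 1.18 above the other lines on the log2 scale (adjusted p 1.57e-07). RBM41 gave 215 and 251 in KMS11, 177 and 160 in KMS18, 153 and 154 in KMS34, and 68.3 and 85.4 in OPM2. Both OPM2 arrays lay below all others, by -1.25 on the log2 scale (adjusted p 3.12e-07). DDX24 gave 957 and 811 in KMS11, 415 and 394 in KMS18, 523 and 486 in KMS34, and 1232 and 1097 in OPM2. The line means of DDX24 fell into a high pair, OPM2 and KMS11, and a low pair, KMS34 and KMS18, with a 2.88-fold span. DDX52, PRPF3, DHX36, PRPF8, DHX8 and DHX9 followed with spans of 2.15- to 2.04-fold. Just under 2-fold were DHX29 and RBM48, both at 1.99-fold.

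KMS11 stood highest for DHX8, the helicase that releases mRNA from the spliceosome, by 0.79 over the other lines (adjusted p 7.19e-06), for DHX57 by 0.75, and for PRPF4, a protein of the U4/U6 particle, by 0.62. It stood lowest for PRPF19, a ubiquitin ligase of the spliceosome, with 455 and 413 against 664 to 771 on the other 6 arrays (-0.72, adjusted p 4.96e-06), for DDX10 (-0.48) and for HNRNPA0 (-0.51). Besides SNRPB2 and SNRPA1, KMS18 was highest for RBM15B, a subunit of the m6A writer complex (0.52), and for HNRNPAB (0.40). KMS18 was lowest for SRSF8 (-0.72) and for DDX52 (-0.73), a helicase of ribosomal RNA processing. KMS34 was highest for DDX55 (0.61), DDX47 (0.52), HNRNPF (0.39) and RBM6 (0.39). It was lowest for DHX9 (RNA helicase A), with 708 and 791 against 1065 to 1556 elsewhere (-0.80, adjusted p 5.06e-06), for DHX29, which helps ribosomes scan structured mRNA (-0.65), and for PRPF3 (-0.73). PRPF3, which binds PRPF4 in the U4/U6 particle, was highest in OPM2 (0.73), where PRPF4 was lower than in the other lines (-0.37). OPM2 was also highest for HNRNPU, a nuclear scaffold protein, with 1877 and 1935 against 1049 to 1226 elsewhere (0.73, adjusted p 3.11e-06), for RBM25 (0.76), and for HNRNPLL (0.72), a regulator of CD45 splicing in lymphocytes. Besides RBM41, OPM2 was lowest for DHX36, which unwinds G-quadruplexes, with 230 and 234 against 407 to 501 elsewhere (-0.99, adjusted p 2.40e-07), and for RBM12B (-0.68).

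**Figure D4:**
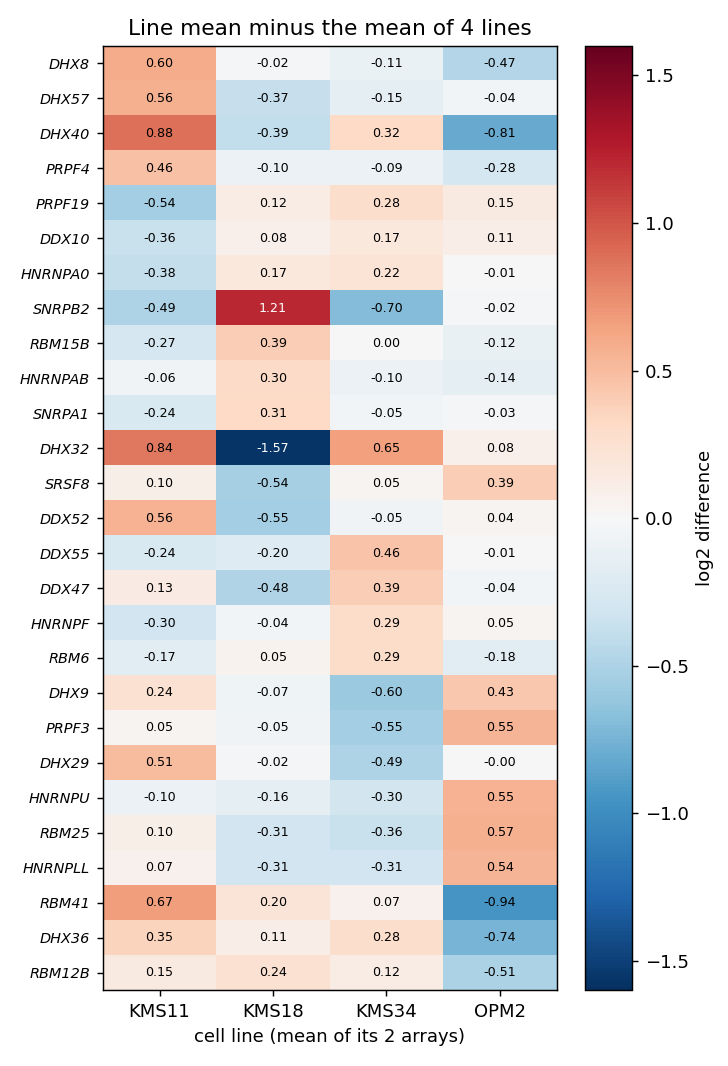
Line mean minus the mean of the 4 lines (log2, colour and printed value) for members that stood highest or lowest in 1 line, each line mean taken over its control and knockdown array. The strongest cells are DHX32 and SNRPB2 in KMS18, followed by RBM41 in OPM2 and DHX40 in KMS11.

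Counted against the mean of the other 3 lines, 48 members were higher and 24 lower in KMS11 (backgrounds 31.0% higher and 24.5% lower of all tested genes, members 37.2% and 18.6%). KMS18 had 19 higher and 38 lower (backgrounds 19.4% and 28.9%, members 14.7% and 29.5%). KMS34 had 27 higher and 37 lower (backgrounds 24.4% and 20.9%, members 20.9% and 28.7%), and OPM2 had 38 higher and 25 lower (backgrounds 22.6% and 26.1%, members 29.5% and 19.4%). These counts turn on the scaling. After quantile normalization they were 30 higher and 36 lower in KMS11, where 23.5% of all tested genes were higher and 28.8% lower, and 45 and 25 in KMS18, where the shares of all genes were 26.0% and 23.3%. In KMS34 they were 15 and 53 (all genes 21.0% and 23.5%), and in OPM2 50 and 21 (26.7% and 23.2%). The balance of higher against lower thus turned for the members in KMS11 and KMS18, and it turned for all tested genes in each of the 4 lines, so the turn is shared with all genes. Brightness also moves with the counts. Of genes above the median intensity, 43.2% were called higher and 21.2% lower in KMS11, against 39.6% and 15.1% of the 106 members that bright. In KMS18 the shares were 18.7% higher and 41.7% lower for these genes and 12.3% and 33.0% for these members. In KMS34 they were 34.3% and 22.6% against 21.7% and 31.1%, and in OPM2 26.8% and 35.2% against 30.2% and 18.9%.

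By family, the SR and hnRNP genes stood high in OPM2, where 22.6% of all tested genes were called higher (26.7% after quantile normalization). There, 6 of 9 tested SRSF genes were higher and 0 lower (7 and 1 after quantile normalization), and 13 of 21 HNRNP genes were higher and 1 lower (15 and 0), with medians of 0.25 and 0.27 above the other lines. SRSF3, an SR protein that also acts in RNA export, was 0.55 higher in OPM2 and 0.64 lower in KMS34, on the log2 scale of line against the other 3. SRSF1, SRSF6, SRSF7, SRSF8 and SRSF11 were the other SR genes higher in OPM2, by 0.25 to 0.52. In addition to HNRNPU and HNRNPLL, HNRNPUL1 (0.51), HNRNPM (0.38) and HNRNPC (0.36), the last of which binds uridine tracts, were among the 13. HNRNPAB was the hnRNP gene lower in OPM2 (-0.19). In KMS11, where 31.0% of all tested genes were higher (23.5% after quantile normalization), the DHX and PRPF genes stood high, with 11 of 16 DHX genes higher and 2 lower (8 and 3 after quantile normalization) and 7 of 10 PRPF genes higher and 1 lower (5 and 1), with medians of 0.33 and 0.32. The 2 DHX genes lower in KMS11 were DHX30 (-0.23) and DHX37 (-0.34), and the PRPF gene was PRPF19. KMS34, where 20.9% of all tested genes were lower (23.5% after quantile normalization), had 8 lower and 2 higher HNRNP genes (11 and 1 after quantile normalization) and 6 lower and 1 higher PRPF genes (8 and 1). For PRPF8, the core of the U5 particle, OPM2 was 0.73 above and KMS18 0.70 below the other lines on the log2 scale.

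**Figure D5:**
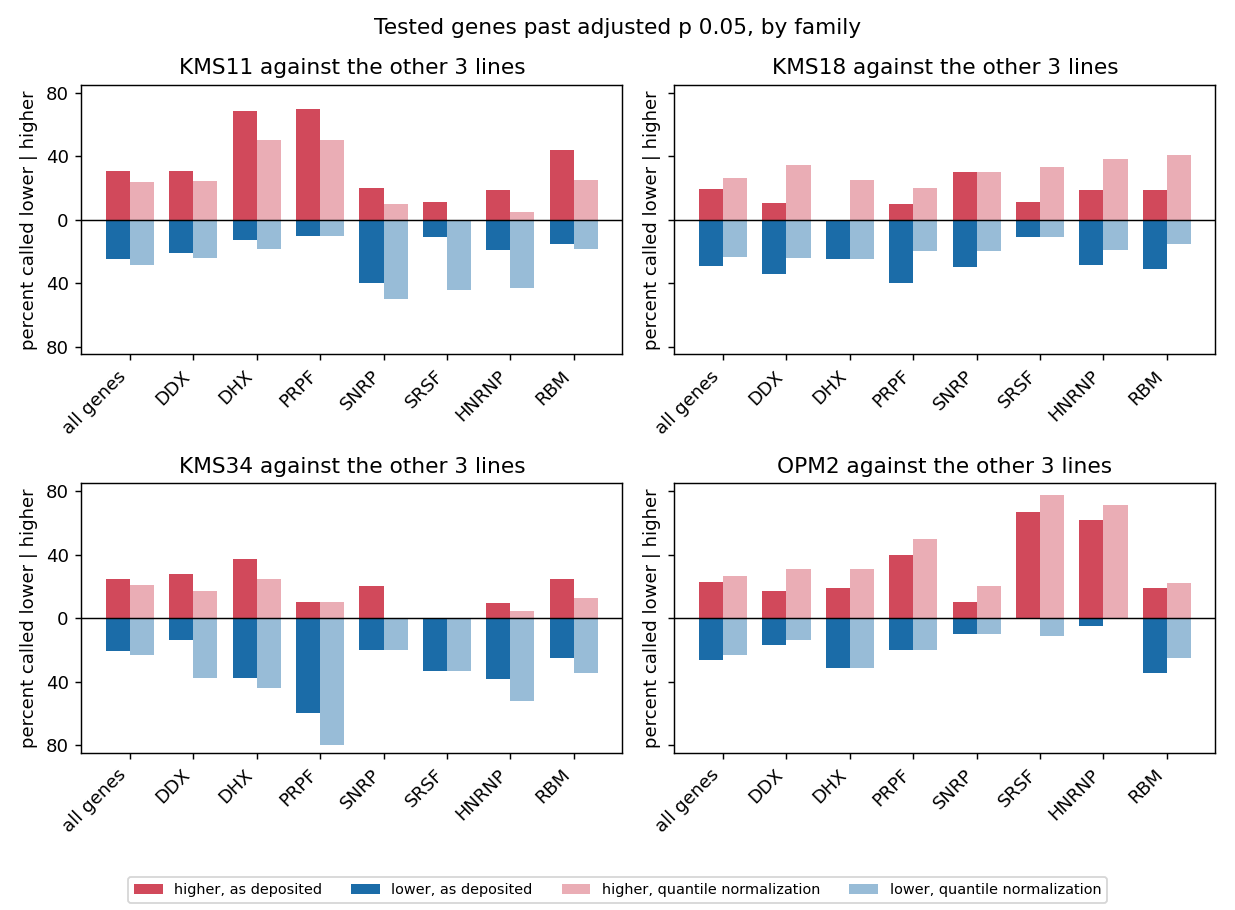
Percent of tested genes that were called higher (red, upward) or lower (blue, downward) in each line against the mean of the other 3, by symbol family and for all tested genes, with values as deposited (dark) and after quantile normalization (light). SRSF and HNRNP genes in OPM2 and DHX and PRPF genes in KMS11 lean to higher under both scalings, whereas most bars of KMS18 change with the scaling.

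At the level end, 21 of the 129 members did not pass the F test over the lines. DDX5 had the narrowest span of the DDX genes, 1.06-fold (adjusted p 0.80), although its knockdown difference was among the lowest. HNRNPA1, a widely expressed splicing repressor, ranged from 324 to 363 over the 8 arrays and spanned 1.09-fold between line means (adjusted p 0.55). The narrowest spans elsewhere were 1.09-fold for DHX35, 1.08-fold for PRPF40B, 1.11-fold for the Sm gene SNRPF, 1.13-fold for RBM18 and 1.16-fold for SRSF2. LSM12 spanned 1.12-fold and CPSF4L 1.40-fold.

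The nearest tested protein-coding genes on the chromosome, in RefSeq order, were read in the same way; where few genes nearby were tested, some of them lie megabases from the member. Over the 16 cases of a member named as highest in a line, 45 of 96 neighbours (46.9%, with 3 taken on each side) were called higher in the same line and 15 lower, beside 19.4% to 31.0% of all tested genes called higher in a line. Over the 12 cases of a member named as lowest, 35 of 72 (48.6%) were called lower and 5 higher, beside 20.9% to 28.9% of all tested genes called lower. For DDX47 in KMS34, 6 of 6 neighbours were higher too, with APOLD1 (1.13), GPR19 (1.16) and FAM234B (1.07) more so than DDX47 itself (0.52). For RBM12B in OPM2, 6 of 6 were lower too, among them TMEM67 (-0.52), close by, and OTUD6B (-1.32), megabases away. For DHX32 in KMS18, 4 of 6 were lower, EDRF1 by -1.54 and BCCIP, which overlaps DHX32, by -0.65. For SNRPB2 in KMS18, 3 of 6 were higher by 0.35 to 0.62, less than SNRPB2, and the distant BTBD3 was lower (-2.25). For HNRNPLL in OPM2, 1 of 6 was higher and 4 were lower, most of these 4 over a megabase away. What links these values was not tested.

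Some motifs were more frequent in the upstream windows of the members than in all windows. RefSeq windows were found for 127 of the 152 members (162 windows, as some genes have several starts). A GC box was present in 55.6% of them, against 42.6% of all 35116 windows, a CCAAT box in 46.9% against 32.0%, an ETS core in 35.2% against 14.5% and an E-box in 10.5% against 6.34%. The TATA box match was the rarer in members, in 7.41% against 10.7%. Median GC content was 61.6% in member windows and 58.0% in all windows, and windows of the same gene can overlap. The windows of all genes were not matched to those of the members by gene type, expression or GC content. These shares describe the letters only.

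The 23 members under the intensity limit were not tested. They include DDX4, the helicase of germ cells, at 26.1 to 30.4, DDX53 at 25.1 to 29.8, RBM46 at 27.5 to 32.2 and RBM20, a splicing regulator of heart muscle, at 35.8 to 41.5. Some broadly expressed genes were also there, with HNRNPA3 at 31.9 to 46.2, SNRPG at 33.6 to 48.5 and RBM4 at 22.0 to 23.5, values that describe these probes and not the absence of the transcript. Among them DDX60L, a relative of the antiviral helicase DDX60, gave 62.7 and 69.8 in OPM2 and 26.8 to 43.6 in the other lines.

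Genes of the same pathways outside the symbol families were taken from 5 fixed lists, of which 107 genes had a row and 106 were tested. For the knockdown, 0 passed the adjusted threshold (background 0.117%), 75 of 106 had a mean below 0 (51.6% of all tested genes did) with a median of -0.04, and at an unadjusted p under 0.05 there were 7 lower and 2 higher (4.15% and 4.26% of all tested genes). In the list of spliceosome core genes, 31 of 38 were below 0, with a median of -0.06, and 10 were lower in 4 lines, as were 8.76% of all tested genes. The list of RNA helicases did not lean this way, with 6 of 12 below 0 and a median of 0.01. Below 0 were also 19 of 30 splicing regulators, 6 of 9 genes of mRNA 3′ end processing and 13 of 18 of mRNA decay and export. BCAS2, a subunit of the same complex as PRPF19, was lower in 4 lines by a mean of -0.27 (adjusted p 0.257), as were SRPK2, a kinase of SR proteins (-0.25, adjusted p 0.257), and CASC3 of the exon junction complex (-0.23, adjusted p 0.292). RIGI, a helicase that senses viral RNA, was higher in 4 lines by 0.20 (adjusted p 0.440), while DHX58, its relative in the DHX family, was at -0.02 (0.04 without KMS11). Between lines, 84 of the 106 passed the F test (79.2%, against 75.7% of all tested genes), and 2 genes had spans wider than any member's. ESRP1, an epithelial splicing regulator, gave 923 and 818 in KMS18 and 45.5 to 113 elsewhere, and IFIH1, a sensor of viral RNA, gave 310 and 284 in KMS11 and 36.4 and 35.8 in OPM2. The low ends of both spans reach under the intensity limit of 46.7. Whether those signals were above background is not known here, so the true size of these spans is not set.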

How the data were processed

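The authors deposited 1 intensity per array and transcript cluster, on a linear scale as judged from the values, and analysed them in GeneSpring, per the series text. Background correction, normalization and genome build are not given in the sources used here. The planned tests assumed a log2 scale; the intensities were therefore converted to log2 and the tests run as planned. The table had 44629 rows, of which 15835 carry 1 symbol and 28794 none; symbols were checked against RefSeq by gene ID. Genes under the 25th percentile of mean log2 intensity (5.54) were left out. Knockdown, F and line tests used 1 limma 3.58.1 fit (R 4.3.3, lmFit and eBayes) over 11109 genes with line as a block, Benjamini-Hochberg adjusted. The knockdown test was tried on simulated data with planted changes. These were larger than the mean knockdown difference of any tested member. How often changes as small as those of the members would be found was not tested. The line in the labels pairs the arrays: deviations from the group means correlated at 0.925 to 0.932 within a line and at -0.135 at most between lines. Such deviations cancel out over the lines, so the values between lines are pushed negative by construction. Without this centring, all tested genes correlated at 0.991 to 0.993 within a line and at 0.880 to 0.915 between lines. The members and lists were chosen with earlier results of these data known. Named were members with the smallest unadjusted p (up to 8 per direction, same sign in 4 lines), the largest differences within a line (3 per direction), those farthest from the nearest other line (up to 4 highest and 3 lowest), the widest and narrowest span per family, and up to 2 per direction and list outside; helicases of the splicing cycle and further family members were added after values were seen. The alternatives were 2 scalings, 2 filters, an offset, row averaging, other blocks, weights, eBayes settings and thresholds, each line left out and protein-coding members alone.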

Additional observations from a re-analysis of the deposited data

Results flagged for a closer look

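Of 122 sets of 4 values (95 of knockdown differences and 27 of control levels), 9 held a value that lay far from the other 3. Many of these genes had been named for an extreme or same-sign value. A chance rate of about 1 in 20 therefore does not apply to them. For the knockdown difference on the log2 scale, these were DDX17 in OPM2 (0.35), RBM4B in OPM2 (0.34), PRPF40B in KMS18 (0.23), DDX55 in KMS18 (0.16) and THOC7, an RNA export gene outside the families, in KMS11 (0.0080, with 0.13 to 0.15 in the other lines). For the log2 level in controls, they were PRPF4 in KMS11 (9.87, higher), PRPF19 in KMS11 (8.83, lower), DDX10 in KMS11 (8.19, lower) and RBM12B in OPM2 (7.16, lower). In these 4 genes the knockdown array of the same line lay to the same side of the other lines. They had been named by line means that include this array, so it adds no separate support.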

How the results depend on the processing

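No change of sign under an alternative was seen for the members named for 1 sign in 4 lines, for a difference within a line or for standing highest or lowest in a line. Leaving a line out could not turn these signs. The naming rule fixes them for the first and last kind, and a difference within a line uses no other line. Only changes to the values themselves, such as the scalings, could have turned a sign. Over all tested members, the sign of the knockdown mean was kept in 84 of 129 with each line left out and turned in 45. Without the replicate block (cell line not in the model), which breaks the pairing, 0 members and 0 of all tested genes were called for the knockdown, and 1 member had an unadjusted p under 0.05. With eBayes trend and robust, 1 member was called (DDX5). The count of members at the fold threshold in KMS11 was 1, and 2 with arrays centred on their medians, 0 with a filter at the 50th percentile, 4 at 1.3-fold, 0 at 2-fold and 0 among protein-coding members; at 1.3-fold it was 1 in KMS18 and 1 in OPM2. Quantile normalization changed the line counts to 30 higher in KMS11, 45 higher and 25 lower in KMS18 and 15 higher in KMS34; the cause was not tested. The median span of 0.515 became 0.526 with quantile normalization, 0.503 centred, 0.458 with no filter, 0.525 with a filter at the 50th percentile, 0.497 with row means, 0.468 with an offset of 16 and 0.528 for protein-coding members, and 0.375 to 0.436 with a line left out, where fewer lines give a narrower span by construction. Members spanning 2-fold numbered 5 to 9 with a line left out: 7 without KMS18 and 5 without OPM2. Of the 24 members lower in 4 lines, 19 stayed so after quantile normalization and 23 after centring. The number of arrays limits precision, no line has replicate arrays, and signal over background was not used here.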
